A study of Mus musculus with 6 samples.

Results

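The 10 genes described here encode core parts of the Notch pathway: the receptors Notch1, Notch2, Notch3 and Notch4, the ligands Jag1, Jag2, Dll1 and Dll3, the DNA-binding effector Rbpj and the target Hes1. The rule that picks them lists their names and no measured value, though the set was put together with earlier results of these data known. Each was found once among the 27179 genes of the deposited count table. The table holds poly(A)-selected RNA of mouse embryonic stem cells with the ES-E14TG2a genetic background, a feeder-independent male line, in 3 R783H libraries and 3 wild-type (WT) libraries. All cells carried FLAG-Trim71, an epitope-tagged form of the RNA-binding protein Trim71, and the R783H cells carried in addition the amino-acid change R783H in it. Every culture was kept on gelatin in 2i + Lif, a medium that holds the cells undifferentiated by inhibiting GSK3 (CHIR99021) and MEK (PD0325901) in the presence of leukemia inhibitory factor. The labels do not say whether the replicates A, B and C were separate clones, separate cultures or separate libraries of the same RNA, so the tests measure the spread between these libraries, which may be technical.

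Notch receptors sit in the plasma membrane and are activated by Jagged and Delta-like ligands on a neighbouring cell. Ligand endocytosis pulls on the receptor, ADAM proteases and gamma-secretase then cut it, and the freed intracellular domain joins Rbpj and a Mastermind-like co-activator on DNA to switch on targets such as the transcriptional repressor Hes1. In embryonic stem cells the pathway is known for its influence on the choice between neural and other fates once the cells leave self-renewal.

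The 4 receptor genes changed in opposite directions, so the sequence just before their transcription start is shown here. Each run is the 250 bases upstream of a RefSeq start on GRCm38.p6 (the assembly also called mm10), written 5′ to 3′ on the strand of the gene, with matches to the N-box CACNAG, a motif bound by Hes-family repressors, in capitals on either strand. The windows are chr2:26503823-26504072 on the minus strand for Notch1, chr3:98013288-98013537 on the plus strand for Notch2, chr17:32166891-32167140 on the minus strand for Notch3 and chr17:34564045-34564294 on the plus strand for Notch4.
Notch1: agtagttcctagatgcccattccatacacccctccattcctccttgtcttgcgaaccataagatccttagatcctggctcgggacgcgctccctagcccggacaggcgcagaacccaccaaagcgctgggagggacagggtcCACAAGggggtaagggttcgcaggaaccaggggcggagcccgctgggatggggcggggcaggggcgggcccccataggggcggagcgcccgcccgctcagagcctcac
Notch2: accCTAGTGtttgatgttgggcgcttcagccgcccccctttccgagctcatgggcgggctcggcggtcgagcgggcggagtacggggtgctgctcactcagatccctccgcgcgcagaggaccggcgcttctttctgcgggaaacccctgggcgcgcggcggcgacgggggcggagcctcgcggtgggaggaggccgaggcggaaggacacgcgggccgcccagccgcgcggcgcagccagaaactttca
Notch3: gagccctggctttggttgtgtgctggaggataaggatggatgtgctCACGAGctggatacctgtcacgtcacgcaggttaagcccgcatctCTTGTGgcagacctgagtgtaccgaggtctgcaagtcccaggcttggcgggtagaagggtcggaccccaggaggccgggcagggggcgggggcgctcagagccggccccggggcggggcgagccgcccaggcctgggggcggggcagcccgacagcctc
Notch4: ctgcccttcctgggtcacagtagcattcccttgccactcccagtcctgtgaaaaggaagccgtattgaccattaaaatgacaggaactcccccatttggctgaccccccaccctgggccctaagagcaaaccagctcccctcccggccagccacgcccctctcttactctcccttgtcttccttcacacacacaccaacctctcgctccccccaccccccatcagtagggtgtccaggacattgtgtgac
Windows were matched for 9 of the 10 genes, all but Hes1. The Notch1 window held 1 N-box match 108 bases upstream of the start, counted to its leftmost base, and the Notch2 window held 1 at 247 bases on the opposite strand. Notch3 held 2 matches, at 204 and 159 bases, and these 3 receptors were the members with the motif. Of all 32851 promoter windows of this length, 36.7% held the N-box. The core of the Rbpj binding motif, TGGGAA on either strand, occurred in the windows of 1 of the 9 genes, Rbpj itself, and in 21.6% of all windows; the longer form GTGGGAA, which contains that core, occurred in 0 of the 9 and in 5.42% of all windows. Windows of the 9 genes were rich in CpG, with a median of 20 CpG dinucleotides over their 11 windows against 6 over all windows, and the Notch4 window had the fewest, 4, against 16, 34 and 17 in Notch1, Notch2 and Notch3. A match is a description of the letters and was not tied to binding.

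Total counts ran from 20894277 to 29079670 per library, higher in every R783H library than in every WT library, so that 3 counts corresponded to 0.103 to 0.144 CPM (counts scaled to the library's TMM-adjusted size, an edgeR normalization). Trim71 mRNA averaged 143.7 ± 12.8 CPM in the R783H libraries and 140.5 ± 16.4 CPM in the WT libraries (SD, n = 3 each), with overlapping groups and no call; with the correction for transcript length described below it was called lower, at -0.27. Its level checks no label, since the change is in the protein sequence, and its exons overlap those of C130032M10Rik on the other strand. R783H B differed most from the other libraries of its group. The stem-cell markers Pou5f1, Sox2, Nanog, Esrrb, Zfp42, Klf4 and Tfcp2l1 together gave 5768 to 5843 CPM in R783H and 6095 to 6181 CPM in WT, with 1 of the 7 called higher and 3 lower. This and the marker counts that follow stand beside 64.5% of all tested genes called, 33.5% higher and 30.9% lower. Of markers of other cell types, 6 early mesoderm genes summed to 35.1 to 40.2 CPM in R783H and 60.2 to 64.4 CPM in WT, with 3 of 4 tested called lower, and 6 primitive endoderm genes to 10.18 to 11.04 CPM in R783H and 5.14 to 7.48 CPM in WT, with 2 of 5 tested called higher. Gata4 had the largest mean of these 6 endoderm genes, 3.19 CPM across WT libraries and 6.68 across R783H libraries. Only Sox7 among the 6 had a lower mean in R783H. Sox7 was not tested and had 9 to 19 counts per WT library against 2 to 4 per R783H library. The 6 neural progenitor markers, among them Sox1 and Nes, summed to 34.0 to 37.1 CPM in R783H and 32.2 to 32.8 CPM in WT; of 2 tested, Sox1 was called higher (log2 fold change 0.66, SE 0.09) and Nes was at -0.12 (SE 0.06) and not called. The 7 fibroblast markers summed to 2.18 to 3.13 CPM in R783H and 3.28 to 3.86 CPM in WT, and of 3 tested Thy1 was called lower, at -2.74 (SE 0.35) on 2 to 34 counts per library. None of the markers was at 0 in every library; their part in the Notch results was not tested, and in RNA from many cells fewer cells of a type and less RNA per cell cannot be told apart.

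Among the receptors, Notch1, Notch2 and Notch3 were about 1.5 times as high in R783H as in WT, and Notch4 was at about 0.51 times its WT level. Tests are edgeR quasi-likelihood F tests, and a gene is called where its p, adjusted by Benjamini-Hochberg over all 14199 tested genes, is under 0.05. Of the 10 genes 9 passed the filter on low counts and 8 were called, 4 higher and 4 lower; over all tested genes 64.5% were called, 33.5% higher and 30.9% lower. Groups did not overlap in CPM for these 8 genes, as for 68.1% of all tested genes. Notch3 was the 1 member called at least 1.5-fold higher, as were 15.1% of all tested genes. That count was 0 without R783H B, where Notch3 was at 0.56 on the log2 scale, and 0 with the correction for transcript length described below, and it was 3 (Notch1, Notch2 and Notch3) with libraries scaled by size alone. The share of members called was thus read against calls in most genes. Exons of Notch1, Notch3 and Dll1 overlap a gene on the opposite strand and those of Notch2 one on the same strand (Gm42820), and the strand setting of the counting is not given in the sources used here.

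**Figure D1:**
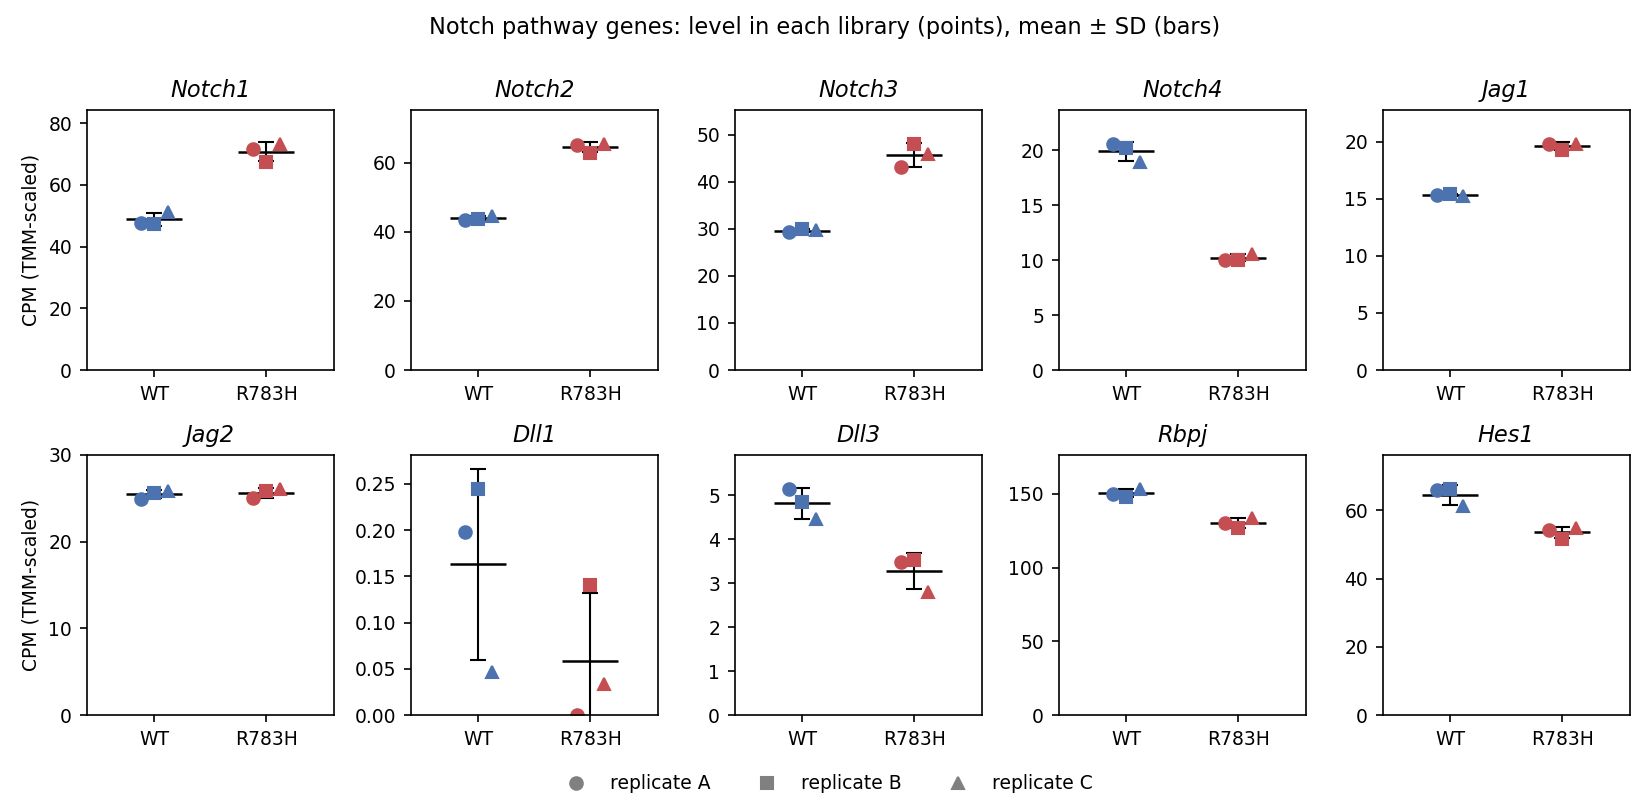
CPM after TMM scaling (vertical axes, each from 0, with its own scale) of the 10 Notch pathway genes in 3 WT (blue) and 3 R783H (red) libraries; symbols mark replicates A, B and C, and black bars the mean ± SD. Notch1, Notch2, Notch3 and Jag1 lie higher in all 3 R783H libraries, Notch4, Dll3, Rbpj and Hes1 lie lower, Jag2 overlaps, and Dll1 rests on 0 to 6 counts per library.

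Notch1 (Entrez 18128, chromosome 2, 26457902 to 26503822), the receptor most often studied in early embryos and T cells, stood at 71.5, 67.3 and 73.4 CPM in R783H A, B and C and at 47.8, 47.2 and 51.4 CPM in WT A, B and C. All R783H libraries were above all WT libraries. It rose by 0.54 on the log2 scale (SE 0.06; edgeR adjusted p 8.11e-06). Notch2 (Entrez 18129, chromosome 3, 98013538 to 98150367), a broadly expressed receptor, stood at 65.3, 62.9 and 65.6 CPM in R783H and at 43.6, 43.6 and 44.7 CPM in WT, again without overlap. Its rise was 0.55 on the log2 scale (SE 0.05; edgeR adjusted p 2.15e-06). Notch3 (Entrez 18131, chromosome 17, 32120820 to 32166896), best known from vascular smooth muscle and itself a target of Notch signalling in several tissues, stood at 43.2, 48.1 and 45.8 CPM in R783H and at 29.3, 29.9 and 29.8 CPM in WT. Its rise was 0.63 (SE 0.06; edgeR adjusted p 3.58e-06) and its R783H libraries were spread more than its WT libraries, with an SD of 2.46 against 0.333 CPM.

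Notch4 (Entrez 18132, chromosome 17, 34564286 to 34588543), a receptor best known from endothelial cells, stood at 10.01, 10.04 and 10.6 CPM in R783H and at 20.6, 20.2 and 18.9 CPM in WT. The lowest WT library was well above the highest R783H library. Its log2 fold change of -0.96 (SE 0.07; edgeR adjusted p 8.23e-07) was the largest in size among the 9 tested genes, and its size ranked 1428 among the 14199 tested genes. Of the 5 endothelial markers, Cdh5 had at most 3 counts and Tie1 at most 5 in any library, Kdr fell from 2.95 to 2.25 CPM, Tek was at 2.05 CPM in WT and 1.56 CPM in R783H without a call, and Pecam1, which embryonic stem cells also express, rose from 87.0 to 99.9 CPM.

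The receptors have long transcripts, from 6591 to 10500 nt, and fold changes in these libraries followed transcript length. Of the 1160 tested genes with a longest transcript in that range, 58.4% were called higher and 14.7% lower, and their median log2 fold change was 0.28, while that of all tested genes was 0.03. A fit with an offset that removes the trend on transcript length and GC content from each library kept all 4 calls at a different size. Notch1 then rose by 0.26 (SE 0.05) and Notch2 by 0.22 (SE 0.04), less than the 0.54 and 0.55 without the offset, and Notch3 rose by 0.44 (SE 0.05). Notch4, of similar length, was at -1.05 (SE 0.07) with it. With the offset 31.2% of 13067 genes were called higher and 37.5% lower. Whether the length trend is technical or part of the response was not tested.

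**Figure D2:**
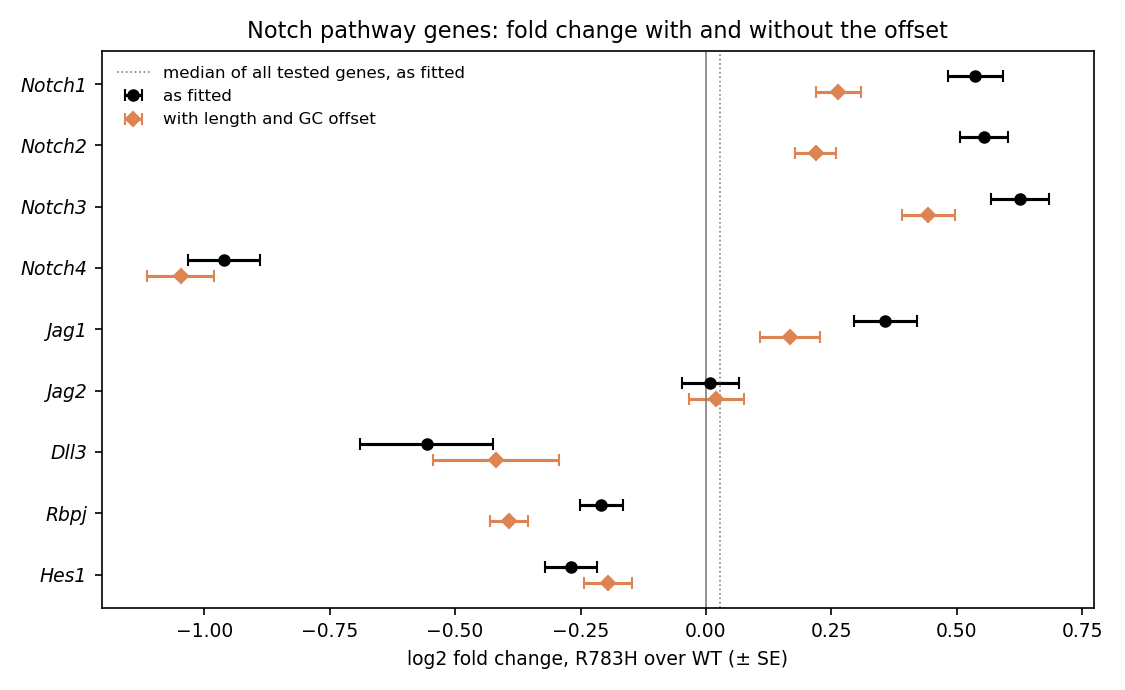
Log2 fold change of R783H over WT (horizontal axis, ± SE) of the 9 tested genes as fitted (black circles) and with the length and GC offset (orange diamonds); the dotted line is the median of all tested genes. Notch1, Notch2, Notch3 and Jag1 move toward 0 with the offset, Rbpj moves from -0.21 to -0.39, and no gene changes sign.

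Levels of different genes were compared per kilobase of the longest annotated transcript. On this scale the 4 receptors together gave 20.7, 20.6 and 21.3 CPM per kb in R783H and 16.0, 15.9 and 16.3 CPM per kb in WT. These levels do not include the length and GC offset, with which Notch1, Notch2 and Notch3 rose less. Notch4 made up 18.8 ± 1.02% of the receptor level in WT and 7.43 ± 0.105% in R783H (SD, n = 3 each). The other receptors each took a larger share in R783H, with 35.7% against 32.0% for Notch1, 29.5% against 26.1% for Notch2 and 27.4% against 23.0% for Notch3. Neither the summed level nor any of the 4 shares overlapped between the groups. An exact two-sided permutation test gave p = 0.1 for each, also after Benjamini-Hochberg adjustment over the 6 values tested, and 0.1 is the smallest p that 3 against 3 libraries allow. Shares within a library do not depend on how libraries are scaled to each other, but they do depend on the length used. Per kilobase of the mean length over a gene's annotated transcripts, Notch1 took 52.2% in WT and 59.5% in R783H, Notch2 11.5% and 13.3%, Notch3 15.4% and 18.7%, and Notch4 20.9% and 8.44%; the direction between the groups was the same for each receptor, without overlap.

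**Figure D3:**
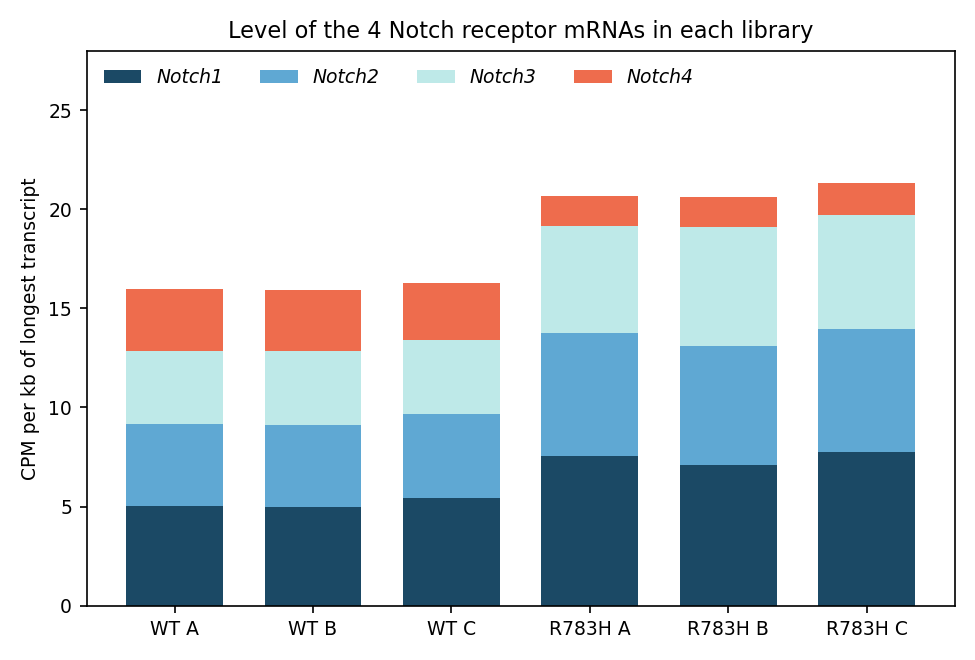
Level of the 4 Notch receptor mRNAs in each library, in CPM per kb of the longest transcript (vertical axis from 0), stacked by gene, without the length and GC offset. Bars of the R783H libraries reach 20.6 to 21.3 against 15.9 to 16.3 in WT, and the Notch4 segment is the only one that is smaller in R783H, at 7.43% of the bar against 18.8%.

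Of the 4 ligands, Jag1 rose, Dll3 fell, Jag2 did not pass the test and Dll1 was too low to test. Jag1 (Entrez 16449, chromosome 2, 137081451 to 137116520), a Jagged-type ligand mutated in Alagille syndrome, stood at 19.8, 19.2 and 19.8 CPM in R783H and at 15.3, 15.4 and 15.2 CPM in WT. These groups lay far apart relative to their spread of 0.319 and 0.0696 CPM (SD). The log2 fold change was 0.36 (SE 0.06; edgeR adjusted p 4.42e-04), and 0.17 (SE 0.06; edgeR adjusted p 0.0212) with the length and GC offset.

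Jag2 (Entrez 16450, chromosome 12, 112907803 to 112929812), the other Jagged-type ligand, stood at 25.02, 25.8 and 26.1 CPM in R783H and at 24.95, 25.6 and 25.9 CPM in WT. Groups overlapped almost fully. Its log2 fold change was 0.01 (95% interval -0.12 to 0.13, from the edgeR fit), so a change as large as that of Jag1 lies outside the interval. Dll3 (Entrez 13389, chromosome 7, 28293555 to 28301785), a divergent ligand that is held inside the cell and dampens Notch signalling in the cell that makes it, had 105, 100 and 83 counts in R783H and 104, 119 and 95 in the less deeply sequenced WT libraries. In CPM this was 3.49, 3.52 and 2.80 against 5.15, 4.85 and 4.45, without overlap. It fell by 0.56 on the log2 scale (SE 0.13; edgeR adjusted p 0.00336). Dll1 (Entrez 13388, chromosome 17, 15367354 to 15376932), a Delta-type ligand of somite and neural tissue, had 0, 4 and 1 counts in R783H and 4, 6 and 1 in WT, near the floor of 3 counts, and no fold is given.

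Per kilobase the 4 ligands together gave 9.72 to 9.87 CPM per kb in R783H and 9.50 to 9.68 in WT, a ratio of 1.02 against 1.30 for the receptors. The exact two-sided permutation p was again the smallest possible, 0.1, since even this small difference left the groups without overlap. By mean transcript length the ratio was 1.00 and the groups overlapped, while that of the receptors was 1.27. None of these ratios includes the length and GC offset, with which Notch1, Notch2, Notch3 and Jag1 rose less. Jag2 made up the larger part of the ligand level, at 5.02 ± 0.110 CPM per kb in R783H and 4.99 ± 0.0940 in WT.

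Rbpj and Hes1, which act downstream of the receptors, both fell. Rbpj (Entrez 19664, chromosome 5, 53555779 to 53657445), which represses targets without Notch and activates them with it, stood at 130.0, 126.7 and 133.9 CPM in R783H and at 150.2, 147.8 and 153.4 CPM in WT. All R783H libraries were below all WT libraries. The log2 fold change was -0.21 (SE 0.04; edgeR adjusted p 0.00129). It was -0.39 (SE 0.04) with the length and GC offset and -0.13 with libraries scaled by size alone, called in both. A pseudogene, Rbpj-ps3, matches the Rbpj transcript over 1441 nt, so the count of Rbpj is uncertain to the extent that such reads were split or dropped.

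Hes1 (Entrez 15205, chromosome 16, 30065357 to 30067796), the best-known Notch target and a gene that also responds to other signals in stem cells, stood at 54.1, 51.8 and 54.8 CPM in R783H and at 66.0, 66.3 and 61.2 CPM in WT. Its groups did not overlap. The log2 fold change was -0.27 (SE 0.05; edgeR adjusted p 8.89e-04), a fold of 0.830. Hes1 thus fell while 3 of the 4 receptors rose.

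The other targets on a list of 7 Notch target genes from general knowledge had lower levels than Hes1. Nrarp was the highest of them, with a mean of 5.92 CPM in R783H and 6.32 CPM in WT. Hey1, a repressor related to Hes1, averaged 0.795 ± 0.229 CPM in R783H libraries against 1.42 ± 0.132 CPM in WT libraries (SD, n = 3 each), with 18 to 31 counts in R783H and 30 to 32 in WT. It fell by 0.82 on the log2 scale (SE 0.24; edgeR adjusted p 0.0115). Nrarp, which feeds back on the receptor's intracellular domain, had 155 to 191 counts in R783H and 113 to 168 in WT, and its log2 fold change of -0.10 (SE 0.12) did not pass the test. Hey2 had 3 to 11 counts in any library and was at -0.17 (SE 0.51), and Hes5, Hes7 and Heyl had at most 4 counts and were not tested. Of the 4 targets tested, Hes1 included, 2 were called lower and 2 were not called. Over all tested genes 30.9% were called lower and 64.5% were called in either direction.

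By level per kilobase of the longest transcript the 10 genes had the same leading pair in both groups. Hes1, at 43.9 ± 1.95 CPM per kb in WT, was above Rbpj at 27.4 ± 0.516. In WT Notch1 (5.14 ± 0.238) and Jag2 (4.99 ± 0.0940) followed with overlapping libraries, then Notch2 (4.19 ± 0.0615), Notch3 (3.70 ± 0.0415), Notch4 (3.02 ± 0.131), Jag1 (2.73 ± 0.0124), Dll3 (1.84 ± 0.133) and Dll1 (0.0456 ± 0.0289; SD, n = 3 each). In R783H the order after Hes1 (36.5 ± 1.08) and Rbpj (23.7 ± 0.655) was Notch1 (7.46 ± 0.327), Notch2 (6.15 ± 0.142), Notch3 (5.71 ± 0.307), Jag2, Jag1 (3.49 ± 0.0568), Notch4 (1.55 ± 0.0501), Dll3 (1.25 ± 0.156) and Dll1 (0.0163 ± 0.0206). Notch2 and Notch3 overlapped there. Notch4 was above Jag1 in every WT library and below it in every R783H library. Jag2, level with Notch1 in WT, was below the 3 higher receptors in every R783H library. This order rests on the length used. By mean transcript length Notch4 (6.60 CPM per kb) stayed above Jag1 (5.54) in R783H, Jag2 in R783H (22.7) was above Notch3 (14.6) and Notch2 (10.4), Jag2 in WT (22.6) was below Notch1 (32.1), and Notch1 in R783H (46.6) was above Rbpj (45.3).

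Of 58 other genes of the pathway, listed by role from general knowledge, 51 passed the filter. Of these, 25 were higher, 12 lower and 14 not called, and their median log2 fold change was 0.14 against 0.03 for all tested genes. Over all tested genes 33.5% were called higher and 30.9% lower, and the counts by role stand beside these shares. With the length and GC offset 14 were higher and 18 lower and their median was 0.01. In that fit 31.2% of 13067 genes were called higher and 37.5% lower. Several genes named here share exon sequence with an antisense or neighbouring gene, and the use of strand in counting is not given in the sources used here.

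Of 10 genes of the machinery that cuts the receptor, 6 were called higher and 1 lower. Psen2, a catalytic subunit of gamma-secretase, rose by 0.85 (SE 0.09), from 9.56 ± 1.12 to 17.1 ± 0.911 CPM, and Ncstn, its substrate-receiving subunit, rose by 0.65 (SE 0.05), from 60.3 ± 0.810 to 94.8 ± 3.35 CPM. Aph1c, a further subunit, was called higher (0.81, SE 0.27) at 19 to 71 counts per library and lost its call without R783H A, WT A or WT C, where its fold change was 0.60, 0.73 and 0.78; it shares a stretch of 317 nt with its paralog Aph1b.

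Ligand endocytosis and receptor glycosylation differed between members. Of 4 genes for ligand endocytosis 3 were called higher, and Neurl1b was at -0.57 (SE 0.29) and not called. Neurl1a, a ubiquitin ligase of the Neuralized family, rose by 0.77 (SE 0.06), Mib1, a ligase that ligands need for endocytosis in many tissues, by 0.39 (SE 0.08) and Mib2 by 0.23 (SE 0.05). Mib1, with a transcript of 10231 nt, was at 0.02 (SE 0.05) and not called in the fit with the offset. Among 5 glycosylation genes 3 were higher and 1 lower. Mfng, a Fringe enzyme that alters which ligands a receptor answers to, fell from 5.36 ± 0.558 to 1.86 ± 0.569 CPM, a log2 fold change of -1.53 (SE 0.19; edgeR adjusted p 3.84e-05). Poglut1, which adds glucose to the receptor, rose by 0.16 (SE 0.04), and Pofut1, which adds fucose, by 0.20 (SE 0.05), and by 0.02 (SE 0.05) with the offset, where it was not called. The other Fringe genes Rfng and Lfng were at 0.12 (SE 0.05, called) and 0.14 (SE 0.22, not called).

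Genes of receptor trafficking and turnover were called higher in 5 of 10 cases and lower in 1. Aak1, an endocytic kinase with a transcript of 19341 nt, rose by 0.76 (SE 0.06), and by 0.27 (SE 0.03) once length and GC were offset. The Deltex ubiquitin ligases Dtx3 and Dtx1 rose by 0.60 (SE 0.06) and 0.59 (SE 0.09). Dtx2, of the same family and chosen after its values were seen, was at -0.40 (SE 0.07) and called lower. Numb, an inhibitor of Notch, was not called (0.12, SE 0.06).

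Beside Rbpj, 6 further genes of the nuclear complex were tested, and 4 were called higher and 2 lower. The acetyltransferases Kat2b and Kat2a moved in opposite directions, with 0.47 (SE 0.06) and -0.38 (SE 0.05), and Ep300, another acetyltransferase, rose by 0.38 (SE 0.07), or 0.05 (SE 0.05) and not called with the offset. Of 13 co-repressor genes 4 were called higher and 6 lower. Tle1, a Groucho-family partner of Hes repressors, changed by -0.62 (SE 0.05), from 59.9 ± 2.55 to 39.0 ± 1.08 CPM, and Ctbp2 by -0.43 (SE 0.05). Ncor1 rose by 0.40 (SE 0.07) and was at 0.07 (SE 0.04), not called, with the offset.

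**Figure D4:**
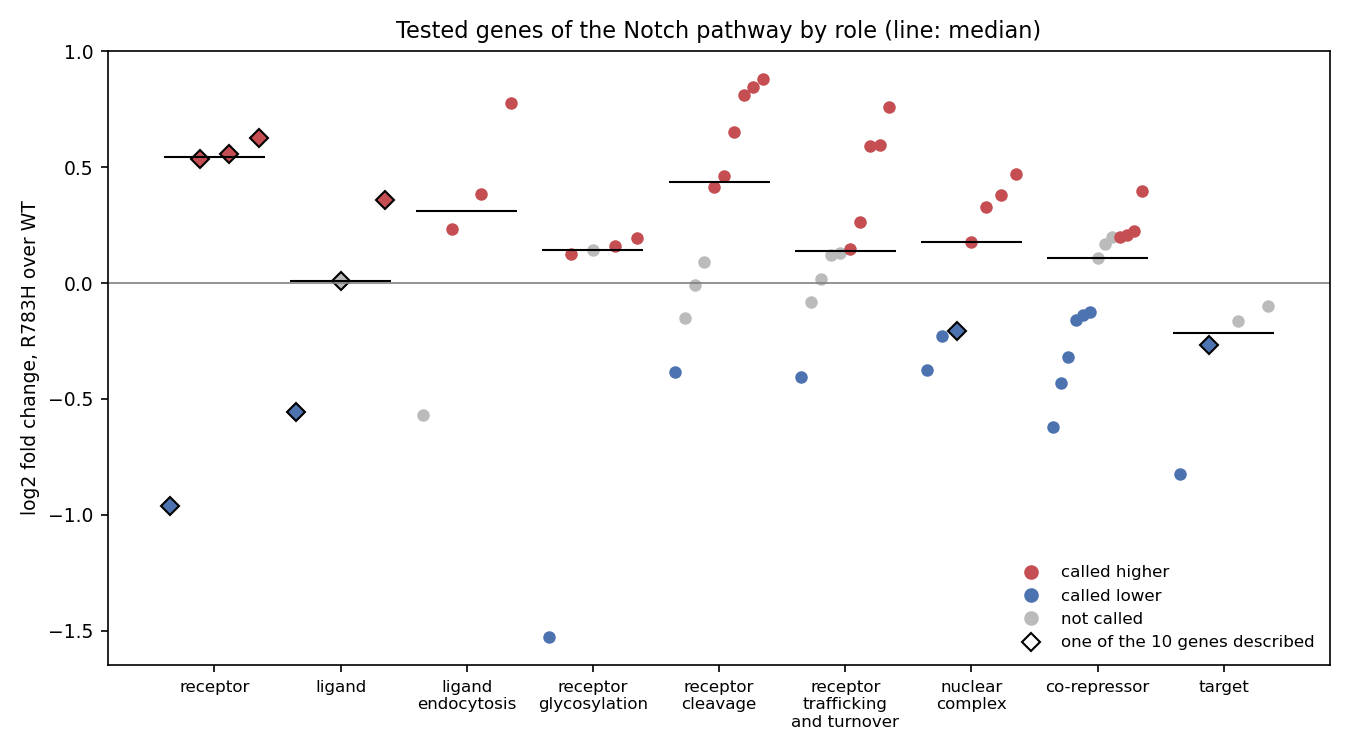
Log2 fold change of R783H over WT (vertical axis) of the tested genes of the Notch pathway, grouped by role along the horizontal axis; red marks genes called higher, blue lower and grey not called, diamonds the receptors, ligands, Rbpj and Hes1 of the main set, and lines the median of each role. Receptor cleavage genes reach 0.88, Mfng is the lowest point at -1.53, and the 4 tested targets lie below 0. Of these targets, Hey2 (-0.17, SE 0.51) and Nrarp (-0.10, SE 0.12) were not called.

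Likeness over the 6 libraries was described with Pearson's r of log2 CPM within the pathway list. Notch1 was most like Aak1 (r = 0.99), Notch2 (0.99) and Spen (0.99), and Hes1 most like Notch4 (0.97), Ctbp2 (0.97) and Neurl1b (0.95), among 59 genes each. All share the same 6 libraries in 2 groups, and 177 of all tested genes were at least as like Notch1 as Aak1 was. For Hes1, 209 genes were at least as like it as Notch4 was, 230 as Ctbp2 was and 521 as Neurl1b was. Neurl1b had only 10 to 14 counts per library.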

How the data were processed

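Oligo(dT)-selected RNA of mouse embryonic stem cells gave 3 R783H and 3 WT libraries. The authors deposited 1 table of raw read counts per Entrez gene, as whole numbers in a column per alignment file, per the file headers. CASAVA 1.4, HISAT2, SAMtools and build mm10 are named in the submitters' processing notes; the counting tool, annotation and strand setting are not given in the sources used here. Groups and replicate letters came from the titles, and 0 columns were unassigned.

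RefSeq (GRCm38.p6) gave symbols for 25275 of 27179 identifiers and the promoter windows. GENCODE M21 gave the longest transcript per gene, and BLAST 2.17.0 found matches to other genes of at least 98% identity over 100 nt. Genes were filtered with filterByExpr (minimum count 10), which left 14199, scaled with TMM and fitted with edgeR 4.0.16 (R 4.3.3), with group as the single term and Benjamini-Hochberg adjustment over all tested genes. CPM uses TMM-scaled library sizes. SE is the log2 fold change over the square root of F, and intervals use the test's degrees of freedom. Alternatives used limma 3.58.1 and DESeq2 1.42.0, other scalings and filters, equal depth, a length and GC offset (splines with 5 degrees of freedom each, 13067 genes), a replicate block and each library left out. The fit was tested on simulated data. Reads carry no molecular identifiers, so the floor of 3 counts covers counting error only.

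Named genes are all 10 members, every counted target on the list, Trim71 and, per role, up to 3 called genes with the largest change and a mean of at least 50 counts in the higher group. Other genes named were picked with their values in view. The members, the lists and the tests were chosen with earlier results of these data known.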

Additional observations from a re-analysis of the deposited data

How the results depend on the processing

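Of the 10 genes, 4 were called higher and 4 lower in each of the 17 alternatives, and these were Notch1, Notch2, Notch3 and Jag1 on the one side and Notch4, Dll3, Rbpj and Hes1 on the other. Among 31 tested named genes, 499 of 522 values under alternatives kept their direction and their side of the threshold, 11 lost the call and 12 changed sign, all in Jag2, Hey2 and Trim71, which had no call as reported. Jag2 was at -0.013 with RLE factors and with DESeq2 and ran from -0.020 to 0.016 with each library left out, and Hey2 ran from -0.44 to 0.23. Trim71 ran from -0.022 to 0.13 with each library left out, and was -0.27 and called lower with the length and GC offset, with the replicate block or without it (edgeR adjusted p 3.7e-05 and 0.00139); the cause was not tested. Of the 58 other pathway genes, 14 were called higher with that offset (25 without), also with the replicate block, and their median was 0.015 and, with the block, 0.014; the cause was not tested. Replicate letters did not pair the libraries: deviations from the group means correlated at -0.07, 0.0068 and 0.09 for A, B and C, and not every library correlated best with its own letter. With the replicate block 4 and 4 of the 10 genes, 23 and 12 of the others and 4839 and 4421 of all genes were called higher and lower. With the mean transcript length in place of the longest, Notch4 took 20.9% of the receptor level in WT and 8.44% in R783H, Notch1 went from 32.0% to 52.2% in WT and Notch2 from 26.1% to 11.5%, and the order of the genes changed. With GTGGGAA in place of TGGGAA the count of members with the Rbpj motif was 0. Depth limits Dll1, Hes5, Hes7 and Heyl, with at most 6 counts per library.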

Other observations

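The nearest tested genes on the chromosome, 3 on either side of each of the 10 genes, were listed after the other values had been seen. Their counts stand beside 64.5% of all tested genes called, 33.5% higher and 30.9% lower. Around Notch4, Pbx2 was at -0.44 (SE 0.05) and Gpsm3 at -0.49 (SE 0.11), both called lower within 18.4 kb between gene midpoints, and the next gene, Rnf5, was at -0.13 (SE 0.06) and not called. On the other side H2-Eb1 and H2-Ab1, more than 265 kb away, were called higher, at 0.90 (SE 0.27) and 1.11 (SE 0.33). Around Hes1 5 of 6 neighbours were called higher (edgeR, adjusted p under 0.05) and 1 was not called, with log2 fold changes from 0.17 to 1.93, the highest in Lrrc15 (SE 0.13). Around Notch1 1 of 6 neighbours was called higher and 5 were not called, with values from -0.15 to 0.44. Around Notch3 3 were higher and 3 lower.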
